A study of Mus musculus with 87 samples.

Results

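The loci described here are weak, intermittently detected sites of ETn capture-seq in mouse genomic DNA. Each reached 10 reads per 1e6 reads (RPM) in at least 1 but not all of 76 main libraries, reached 100 RPM in none, and held at least 1 read in at least 6. The members were therefore chosen by their read counts in these same libraries, and loci at 10 RPM or more in all 16 B6 libraries were left out. The rule gave 1285 of 5018 loci (25.6%). Of the others, 2345 (46.7%) were at 10 RPM or more in every B6 library, 216 (4.30%) reached 100 RPM, 1054 (21.0%) held a read in fewer than 6 main libraries, and 118 were at 10 RPM in no main library. A locus at 10 RPM or more in a library is written as called below.

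The study screened for new ETn insertions in mice that lack a cluster of KRAB zinc finger protein (KRAB-ZFP) genes on chromosome 4 (Chr4-cl). The main libraries are 1 per mouse for 74 mice and 1 for each of 2 ES cell lines. The 16 B6 libraries comprise 12 Chr4-cl KO mice, 2 WT mice and the 2 KO/WT ES lines from which the Chr4-cl mice were made. The 13 B6/129 F1 mice comprise 8 KO, 2 KO/WT and 3 WT, and the 39 B6/129 F2 mice comprise 19 KO, 12 KO/WT and 8 WT. In these, the B6 line carrying the deletion had been crossed to 129X1/SvJ mice, once for the F1 and a second time for the F2. The Chr2-cl mating, in which a KRAB-ZFP cluster on chromosome 2 is deleted on a mixed B6/129 background made with R1 ES cells, gave 5 KO, 1 KO/WT and 2 WT mice. DNA came from tail for 45 libraries, from ear for 21, from blood for 6, from spleen for 2 and from ES cells for 2, and the mice were labelled as 37 males and 37 females. The labels give no age other than marking some tails as adult. A further 11 libraries were made from mice that already had a main library.

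ETn (early transposon) elements are mouse endogenous retroviruses. A complete copy has an internal region between a pair of identical long terminal repeats (LTRs), and ETn copies can still move in laboratory mice when proteins are supplied by related elements. KRAB-ZFPs bind such sequences and recruit a repressor that silences them in early development. In capture-seq, RNA probes made to the ends of the LTRs pull out DNA fragments that hold an LTR together with its neighbouring sequence. A read pair then places an element when one mate maps uniquely to the genome and the other maps to an ETn repeat.

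The sequences below show what some of these loci share with the probes. The probe that was the best match of most members, 97 of the 518 with a match, has 1 exact copy in the genome, at chr14:6295355-6295474 (mm9, minus strand), and is given first. Next come the probe and genome stretch of 2 members called in 75 of the 76 main libraries, 1 at chr11:20277220-20279051 with its stretch at chr11:20277983-20278102 and 1 at chr13:50355039-50356084 with its stretch at chr13:50354119-50354217, both on the plus strand and between genes. The chromosome 11 stretch lies inside its locus, whereas the chromosome 13 stretch lies outside, within the 1000 bp searched beside the locus. The probe of the chromosome 13 member has 2 exact copies in the genome, and that of the chromosome 11 member has 1. The sixth sequence is a member called in the library of mouse C5733 alone, at chr15:19172985-19177172 with its stretch at chr15:19173497-19173602 on the minus strand, set against the first probe. The last pair is a stretch inside a reference ETn element (chr4:155292843-155292961, plus strand, not part of any probe) and the stretch most like it in the member at chr10:50292610-50299136 (chr10:50295118-50295237, minus strand). Capitals in a member's stretch mark bases that differ from, or are absent from, the sequence it is set against. The C5733 member and the internal pair were picked after their values had been seen.
Probe of most members: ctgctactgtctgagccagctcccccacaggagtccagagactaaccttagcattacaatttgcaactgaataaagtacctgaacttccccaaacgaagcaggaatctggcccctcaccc
Probe of the chromosome 11 member: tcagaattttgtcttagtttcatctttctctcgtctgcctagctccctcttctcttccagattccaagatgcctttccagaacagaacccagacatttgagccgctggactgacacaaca
Chromosome 11 member: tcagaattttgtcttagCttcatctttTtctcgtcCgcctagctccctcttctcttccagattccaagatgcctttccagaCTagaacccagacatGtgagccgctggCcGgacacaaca
Probe of the chromosome 13 member: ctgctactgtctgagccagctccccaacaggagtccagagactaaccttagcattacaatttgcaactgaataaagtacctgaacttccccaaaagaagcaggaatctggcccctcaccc
Chromosome 13 member: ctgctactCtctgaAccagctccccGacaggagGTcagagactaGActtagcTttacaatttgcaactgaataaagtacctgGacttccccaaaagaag
Chromosome 15 member: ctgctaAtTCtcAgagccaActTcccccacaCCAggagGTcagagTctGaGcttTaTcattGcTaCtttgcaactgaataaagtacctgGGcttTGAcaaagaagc
ETn internal stretch: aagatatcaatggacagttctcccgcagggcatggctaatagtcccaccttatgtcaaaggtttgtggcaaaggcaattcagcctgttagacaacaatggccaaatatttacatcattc
Chromosome 10 member: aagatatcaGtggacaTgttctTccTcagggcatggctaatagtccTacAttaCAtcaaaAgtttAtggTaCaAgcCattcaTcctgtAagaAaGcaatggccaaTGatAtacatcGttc

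The chromosome 11 member differed from its probe at 8 of 120 bases, and the stretch beside the chromosome 13 member at 9 of 99. A further pair of members called in 75 libraries, at chr1:126127192-126128346 and chr6:132755021-132755955, differed from their own best probes at 6 of 94 and 10 of 120 bases. The C5733 member was farther from its probe, with 17 differing bases, 7 inserted and 1 missing, an identity of 76.6%. The internal stretch of the chromosome 10 member had 21 differing bases and 1 inserted, an identity of 81.7%.

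Library depth, the total of ETn-paired reads, ran from 525419 to 1046650, so that 10 RPM is 5.25 to 10.5 reads. Most members were weak almost everywhere. The highest RPM of a member was 22.8 in the median and 10.001 to 98.6 over all members, and the mean RPM over the 76 main libraries had a median of 1.84. Of the 1285 members, 678 (52.8%) were called in exactly 1 main library, 179 in 2, 162 in 3 to 9, 169 in 10 to 49 and 97 in 50 to 75. Reads were spread more widely than calls. A member held a read in a median of 35 main libraries, and 105 members held a read in all 76. Just inside the upper limit were chr3:31330583-31332249 at 98.6 RPM and chr6:117743070-117745235 at 96.6 RPM. Just outside it were loci on chromosomes 10, Y and 9 at 100.8, 100.9 and 102.6 RPM.

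A single library called most of the members. Mouse C5733, a WT female of mating 2 whose tail DNA was sequenced to 563472 reads, called 951 of the 1285 members (74.01%), and 551 (42.9%) were called in C5733 alone. Besides C5733, T2379 (tail DNA of a B6 KO founder, 525419 reads, the shallowest library) called 237 members, 75 of them alone, and C6734 (ear DNA of the Chr2-cl KO/WT male, 843761 reads) called 283, 2 of them alone. The other 73 libraries called 102 to 209 members, with a median of 150 and an SD of 24.5. Of the 283 members called in C6734, 236 were also called in C5733, and 92 were called in this pair and no other library. Without C5733 the same rule kept 733 members, all of them among the 1285, and without C5733, T2379 and C6734 it kept 534. The results below are therefore given with and without C5733 where they rest on it.

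**Figure D1:**
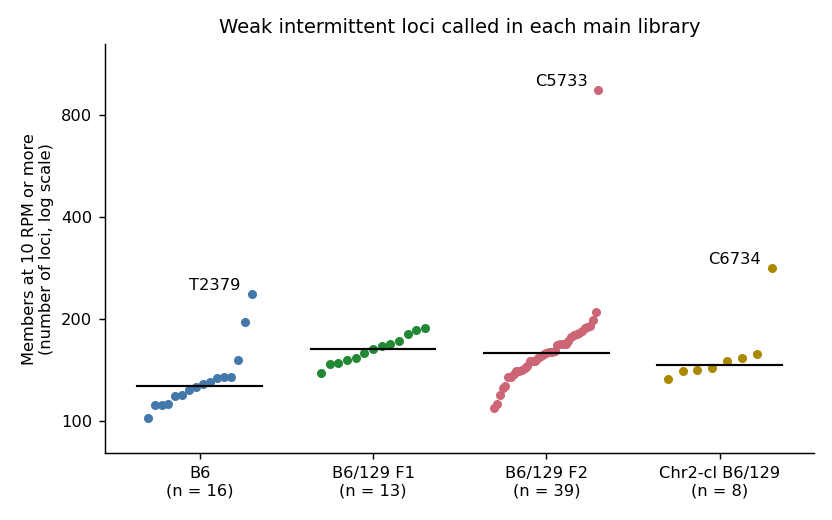
Number of members called at 10 RPM or more in each of the 76 main libraries (log scale), by strain background, with 1 point per library and lines at the medians. C5733 lies at 951, C6734 at 283 and T2379 at 237, while the other 73 libraries lie between 102 and 209.

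Summed over all members, C5733 held 28019 RPM, which is 2.80% of its reads. The other libraries apart from T2379 and C6734 held 3628 to 6852 RPM, with a median of 4938 RPM or 0.494% of reads. Scattered single reads were not more frequent in C5733, which listed 2388 regions of 1 read, against 2013 to 9771 in the 73 libraries and 31989 in T2379. At the loci called in every B6 library, the median level was 419 RPM in C5733 and 316 RPM in T2379, against 423 to 439 RPM in the 73 libraries. T2379 thus differed from C5733 in its many scattered reads. Both lay below the 73 libraries at the strong loci, T2379 by more. Of the 16 members called in all but 1 library, 11 were missing only from T2379. Library quality, as a cause of either pattern, was not tested.

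Members differed in whether they resemble the LTR ends, the internal part of ETn, or neither. Of the 1285 members, 518 (40.3%, exact 95% interval 37.6 to 43.1%) lay within 1000 bp of a stretch of at least 50 bases matching a capture probe and are called LTR-end members. A further 524 (40.8%) had no such match but did have at least 100 bases matching the internal sequence of at least 10 of 60 reference ETn elements, and are called internal members. The remaining 243 (18.9%) had neither. In windows of 3577 bp over the whole genome, 0.766% held a probe match and 0.940% an internal match alone. Among the loci called in every B6 library, 99.1% were LTR-end loci, and among loci with reads in fewer than 6 libraries 93.9% had neither match. The interval concerns the number of loci out of 1285, as if they were independent, and does not cover the spread between mice.

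The match of LTR-end members to the probes was imperfect. Their best probe identity had a median of 82.4% (quartiles 79.3 and 88.8%), against 99.2% for the loci called in every B6 library. Identity was lower in members called in C5733 alone, at a median of 79.5%, than in members not called in C5733, at 90%. Members called in 50 to 75 libraries were LTR-end members in 61.9% of cases and internal members in 1.03%. The members on chromosomes 11 and 13 printed above are among them.

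The kinds of member were distributed differently over the libraries. LTR-end members were called in a median of 2 libraries and internal members in a median of 1, whereas members with neither match were called in a median of 9. Of the 551 members called in C5733 alone, 385 (69.9%) were internal members, 156 (28.3%) LTR-end members and 10 (1.81%) neither. Of the 334 not called in C5733, 29 (8.68%) were internal, 153 (45.8%) LTR-end and 152 (45.5%) neither. The 75 called in T2379 alone were 49 LTR-end, 3 internal and 23 neither. Without C5733 the 733 members were 49.4% LTR-end, 19.0% internal and 31.7% neither, so the share of internal members rests on that library.

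**Figure D2:**
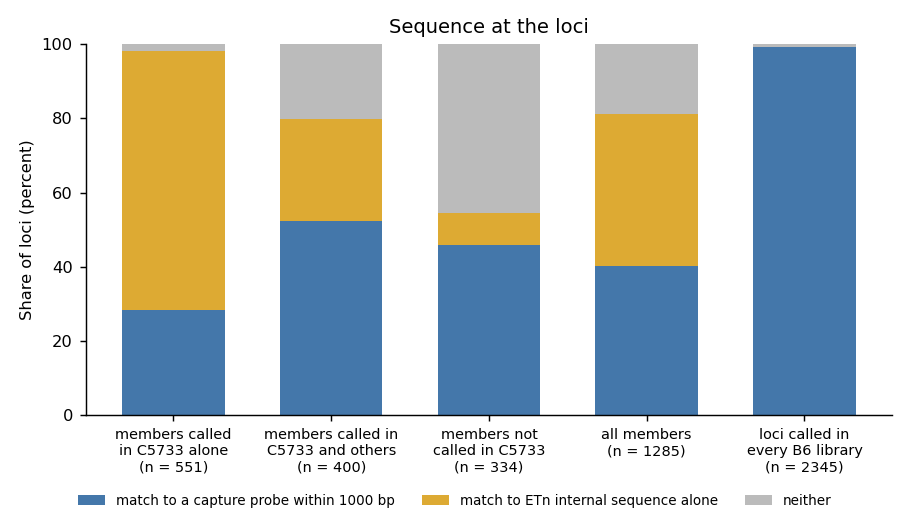
Percent of loci (stacked bars) with a probe match within 1000 bp, with an internal ETn match alone, and with neither, for members called in C5733 alone, in C5733 and others, or not in C5733, for all members, and for loci called in every B6 library. Internal matches alone make up 69.9% of the members called in C5733 alone but 8.68% of those not called in C5733.

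Read levels followed the same division. Over the 524 internal members the mean level was 27.3 RPM in C5733 and 1.02 RPM in the 75 other main libraries pooled, a ratio of 26.8. Over LTR-end members the means were 21.5 and 5.18 RPM, a ratio of 4.15, and over members with neither match 10.5 and 7.92 RPM, a ratio of 1.33. All 551 members called in C5733 alone had at least 1 read in the 75 others, which the rule requires. The strongest internal member in C5733, chr10:50292610-50299136, stood at 95.8 RPM there and at no more than 23.1 RPM elsewhere, and it was called in 6 libraries. Since calls in C5733 chose many of these members, the ratios are a description.

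The reference genome as a whole, members included, holds 10342 internal ETn-like copies that lie away from any probe match. C5733 had a read at 21.2% of them, C6734 at 10.8% and C5736, a littermate of C5733, at 5.75%. In the 73 libraries other than C5733, T2379 and C6734 the share was 0.909 to 5.75%, with a median of 2.31%. At the 6245 copies that match a probe, C5733 had a read at 58.0%, C6734 at 58.7%, and the 73 libraries at 51.4 to 61.1%. These shares count the presence of a read and not its level, and they take no account of depth. The 8 littermates of C5733, deeper at 634925 to 725506 reads, had a read at 52.0 to 55.1% of the probe-like copies, below C5733. At LTR-end members, which lie near a probe match, C5733 did stand apart, with 365 called against 49 to 124 in the 73 libraries.

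**Figure D3:**
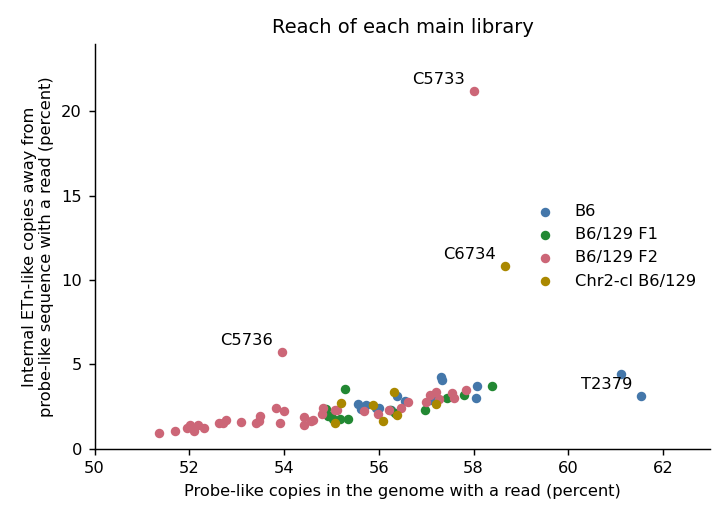
Percent of 10342 internal ETn-like genome copies with at least 1 read (vertical axis) against the percent of 6245 probe-like copies with at least 1 read (horizontal axis, from 50%), with 1 point per main library coloured by strain background. C5733 lies at 21.2% and C6734 at 10.8% on the internal axis, while both lie within the range of the others on the probe axis. The libraries differ in depth, and C5733 lies above its deeper littermates on the probe axis.

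Repeat libraries measured how stable a member's reads were within 1 mouse. None of C5733, T2379 and C6734 had such a library. In 5 technical repeats, counted in both directions, a member called in one library had a read in the other in 1495 of 1501 cases (99.6%, exact 95% interval 99.1 to 99.9%). The same calls had a read in 87.2% of comparisons with libraries of other mice and in 95.4% with littermates. At 10 RPM or more the call itself was found again in 77.1% of repeats (74.9 to 79.3%), against 63.5% in other mice and 73.4% in littermates. In C7415 it was 109 of 169 calls in 1 direction and 109 of 120 in the other. The calls come from 5 pairs of libraries, so these intervals treat related calls as independent and do not cover the spread between pairs. Calls of loci called in every B6 library were found again at 10 RPM in 99.7% of cases. Reads of the members called in these mice were thus nearly always found again, while the threshold was passed intermittently.

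These shares varied with how often a member was called. For members called in 50 to 75 libraries, 826 of 826 calls had a read in the repeat and 91.3% were calls there. In littermates these shares were 98.8% and 91.8%, so such calls were found again as often in a littermate. For members called in 3 to 49 libraries the shares were 99.4% and 61.6%, against 91.4% and 52.3% in littermates. For members called in 1 or 2 libraries only 22 calls fell in the repeated mice, and 20 of these had a read in the repeat while 2 were calls, against 74% and 1.70% in other mice. Juvenile and adult tail of the same mouse shared a read for 98.6% of calls, and tail and other organs for 99.8%. In littermates the same calls had a read in 95.5% and 94.7%. At 10 RPM or more the call was found again in 76.8% and 78.7%, against 76.6% and 76.7% in littermates.

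The spread between libraries gave a like picture. A spread index was used in which 1 means that the counts of 2 libraries differ by counting error alone. Over members its median was 0.858 for technical repeats, 0.968 for juvenile against adult tail, and 0.691 for tail against organ, so that libraries of the same mouse differed by about counting error. It was 2.06 for littermates of matings 1 to 3 and 2.68 for pairs of B6 libraries. At the loci called in every B6 library it was 5.04 and 2.51. For the same relative spread the index rises with read count, and those loci are far stronger than the members. The index therefore does not show which set varied more. Over members it was 16.6 between C5733 and its littermates, with 22.1 for internal members, 15.5 for LTR-end members and 2.05 for members with neither match.

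Members were called more often in mice with 129 ancestry, but the rule leaves out loci called in all B6 libraries and so bears on this comparison. The values are a description. A median of 127 members was called in B6 libraries (range 102 to 237), 163 in B6/129 F1 (138 to 188), 159 in B6/129 F2 (109 to 951) and 146.5 in the Chr2-cl mating (133 to 283). Members with neither match carried most of this gap, with medians of 35, 67, 74 and 55.5 called. LTR-end members were called in medians of 84, 89, 80 and 88. With C5733 left out, 143 members were called in B6 libraries alone, 290 in other libraries alone and 301 in both. The 81 members called in at least 5 other libraries and in no B6 library included 72 with neither match, and 40 of the 81 had no read in any B6 library.

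Per-locus fits (edgeR quasi-likelihood test with Benjamini-Hochberg adjustment over all loci, threshold 0.05) called 409 of the 1285 members between B6/129 F2 and B6, 251 of them higher in F2, where 58.2% of all loci tested were called and 43.0% were called higher. Without C5733 the split turned, with 180 higher and 231 lower, beside 1828 higher and 753 lower of all 4374 loci tested. Members with neither match kept theirs, at 125 higher and 42 lower with C5733 and 124 and 42 without. Between B6/129 F1 and B6, 194 members were called and 136 were higher, beside 19.2% of all loci called and 12.9% higher. Between the Chr2-cl mating and B6, 150 were called and 113 were higher, beside 15.3% and 8.63%. Since the rule used the B6 libraries, nothing is read from these counts.

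The members described next were picked by their adjusted p between backgrounds. They were called in no B6 library and so became members through the other libraries alone, and their values are a description. At chr10:21740628-21742436, between genes and with neither match, the 39 F2 libraries lay between 35.8 and 83.1 RPM with a median of 60.2 RPM. The 16 B6 libraries had a median of 0 and a highest value of 1.23 RPM, so the groups did not overlap. The F1 libraries ran from 0 to 73.1 RPM (median 54.1 RPM) and those of the Chr2-cl mating from 0 to 59.6 RPM (median 37.0 RPM). At chr5:110042558-110044081 every B6 library was at 0, and F2 libraries held 24.8 to 63.6 RPM with a median of 46.3 RPM. At chr9:106387504-106388641, which overlaps a coding exon of Rrp9, a component of the U3 small nucleolar ribonucleoprotein used in ribosomal RNA processing, all B6 libraries and all Chr2-cl libraries were at 0. F1 libraries there held 5.66 to 38.5 RPM (median 18.7 RPM) and F2 libraries 2.97 to 32.5 RPM (median 16.3 RPM). A stronger locus that is no member lies close by, at chr9:106390814-106392693. F1 libraries held 41.9 to 92.0 RPM there and F2 libraries 52.5 to 102.6 RPM. B6 libraries held at most 1.24 RPM and Chr2-cl libraries at most 1.28 RPM. Whether this locus and the Rrp9 member belong to the same site was not tested. At chr9:65192437-65193220 the Chr2-cl libraries were again all at 0, while F1 libraries held 6.99 to 16.5 RPM and F2 libraries 9.65 to 17.02 RPM. Other such loci were present in both 129-derived groups, among them chr7:74282033-74282520 in an intron of Adamts17, which encodes a secreted metalloprotease. It had no read in a B6 library, a median of 7.5 RPM in F2 and a median of 6.88 RPM in the Chr2-cl mating.

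A member called in 75 of 76 libraries is by that choice called in nearly every library of each background. Such members therefore cannot show whether a locus is absent from a background. Only some of them are given here, and their values are a description. At chr10:129974673-129976502, with neither match, the median was 51.6 RPM in B6, 50.9 in F1, 47.8 in F2 and 45.4 in the Chr2-cl mating, and the lowest library overall was T2379 at 7.61 RPM. At the chromosome 11 member the medians were 39.3, 31.7, 40.3 and 44.4 RPM in the same order, with T2379 not the lowest, at 26.6 RPM. At the chromosome 13 member the medians were 30.7, 31.7, 31.2 and 39.1 RPM in the same order. The ranges of the groups overlapped at each of these loci.

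Whether the Chr4-cl deletion went with a change at these loci was asked in juvenile tail libraries of matings 1 to 3, with 13 KO and 17 KO/WT or WT mice and mating as a covariate. The number of members called overlapped between the genotypes. It was 112 to 189 in KO (median 160) and 109 to 951 in KO/WT and WT (median 167, or 163 without C5733). Per locus, 9 of 1206 members tested were lower in KO and none was higher, beside 0.360% of all loci called in either direction and 0.312% lower in KO. Without C5733, 8 were lower, beside 12 of all 3851 loci tested. By DESeq2 8 were lower, beside 12 of all 4165. In a fit of mating 1 alone 7 were lower and 1 was higher, beside 11 and 10 of all 3446. The rule did not use genotype, but it used the same reads. Of the 9, the 8 on chromosomes 4 and 6 were called in none of the 39 Chr4-cl KO libraries, so they became members only through the libraries in which they are high. Their folds and p-values below describe those same values and are no independent support for the difference.

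The lower members lay on chromosomes 4, 6 and 2. All 5 on chromosome 4 lay between 145753883 and 146816638, on the chromosome that carries the deleted cluster, and 4 of them lay in introns of the annotated long noncoding RNAs Gm17452 and Gm16889. Whether they lie inside the deleted stretch was not tested, and DNA that is absent and DNA that was not captured cannot be told apart. At chr4:146815715-146816638, in an intron of Gm16889, the 13 KO libraries held no read and the 17 others held 21.4 to 38.5 RPM with a median of 28.4 RPM. The groups did not overlap, and the pooled level was at least 92.1-fold higher in KO/WT and WT (against a floor of 3 reads over the 13 KO libraries, edgeR adjusted p = 7.26e-14). Libraries outside these matings were used by the rule too, so their values are a description and no independent support. B6 WT mice held 24.3 and 31.4 RPM, F1 WT mice 27.1 to 33.0 RPM and the Chr2-cl libraries 20.7 to 30.9 RPM, whereas B6 KO mice held at most 1.22 RPM and F1 KO mice at most 2.72 RPM. The Chr2-cl KO mice, which keep the chromosome 4 cluster, were at 22.9 to 30.9 RPM.

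At chr4:145753883-145754619, between genes, the KO libraries of matings 1 to 3 again held no read, and the others held 12.1 to 27.6 RPM with a median of 16.2 RPM (at least 52.0-fold, edgeR adjusted p = 3.33e-12). This locus differed from the last in that no B6 library, WT included, held a read. The 3 F1 WT mice held 15.8 to 27.1 RPM and the 2 F1 KO/WT mice 10.7 and 11.3 RPM. At chr4:146172342-146172409, in an intron of Gm17452, the KO libraries held no read and the others 2.42 to 12.1 RPM with a median of 6.11 RPM (at least 19.9-fold, edgeR adjusted p = 1.03e-09). In the F2 mice the median here was 5.22 RPM in 12 KO/WT and 9.04 RPM in 8 WT, with overlapping ranges, a difference that was not tested. At chr4:146229195-146229275, the only LTR-end member among them with a probe identity of 96.7%, the KO libraries held 0 to 4.74 RPM (median 1.25 RPM) and the others 5.04 to 19.0 RPM (median 9.74 RPM), with a log2 fold change of -2.72 (SE 0.35, edgeR adjusted p = 5.83e-06). At chr4:146773027-146773145, in an intron of Gm16889, the KO libraries held no read and 15 of the 17 others held up to 6.25 RPM (at least 8.54-fold, edgeR adjusted p = 7.98e-04).

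**Figure D4:**
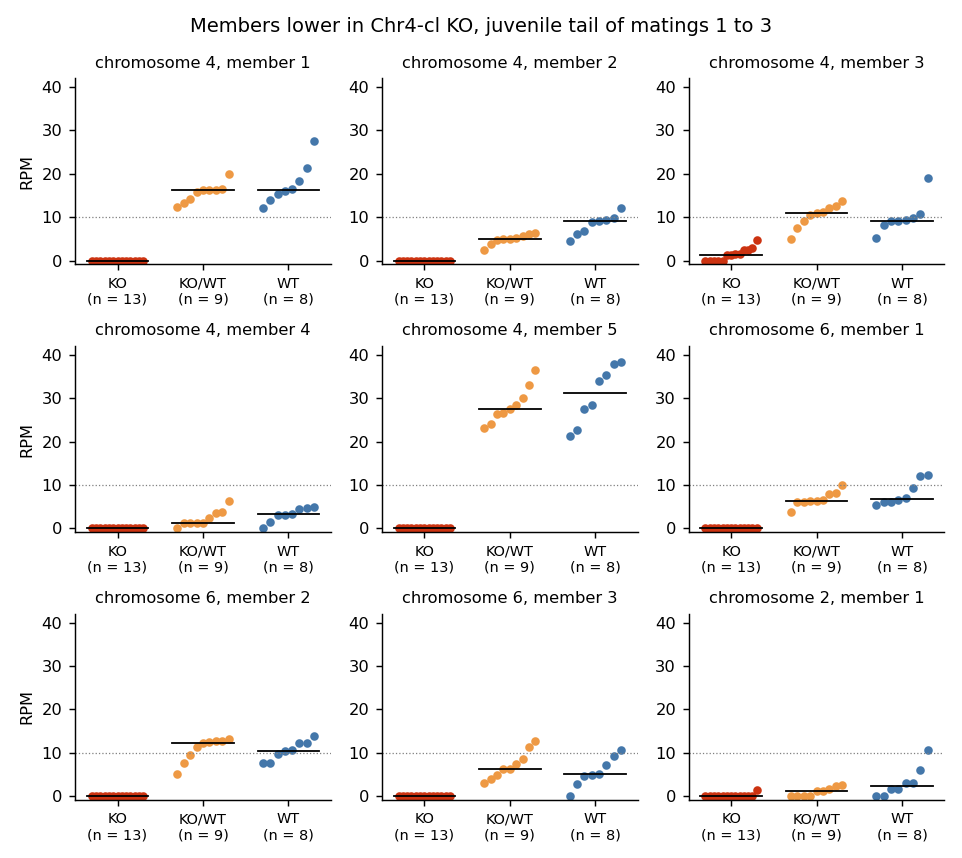
RPM of the 9 members called lower in KO, in juvenile tail libraries of matings 1 to 3, with 1 point per library for 13 KO, 9 KO/WT and 8 WT mice, lines at the medians and a dotted line at 10 RPM (members are numbered by position within a chromosome). At the 8 members on chromosomes 4 and 6 the KO libraries lie at or near 0, while at the member on chromosome 2 the groups overlap.

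The 3 lower members on chromosome 6 followed the chromosome 4 loci. At chr6:58501749-58502206 KO libraries held no read and the others 5.24 to 13.8 RPM with a median of 11.3 RPM (at least 33.9-fold, edgeR adjusted p = 1.12e-10). At chr6:42976044-42976429 the others held 3.80 to 12.2 RPM (median 6.49 RPM, at least 23.03-fold, edgeR adjusted p = 1.19e-09), and at chr6:68270325-68270944 they held 0 to 12.7 RPM (median 6.29 RPM, at least 20.7-fold, edgeR adjusted p = 1.08e-05), with no read in KO at either locus. The first and second of these had no read in any B6 library, as had chr4:145753883-145754619. Each of the 3 had a near-identical copy on chromosome 4 in the reference, of 458 bases at 96.9% identity from position 145315819, of 387 bases at 94.8% from position 145315741, and of 620 bases at 95% from position 146815754. The last of these copies lies within the member chr4:146815715-146816638. Of the 224 members with neither match that lie off chromosome 4, 21 had a copy in the 2 Mb of chromosome 4 that hold these members. Of the 21, 3 were lower in KO, and of the 203 without such a copy 0 were, beside 0.312% of all loci tested. That stretch was set around the members lower in KO, and the 3 became members through other libraries alone. The counts are therefore a description, and why these loci go together was not tested. In the same 2 Mb, 4 of 5 loci that are not members were also called between KO and the others.

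Over all main libraries, the 8 members on chromosomes 4 and 6 held 29 reads in the 39 Chr4-cl KO libraries together and 2221 in the 37 others. The member on chromosome 2, chr2:26736343-26738533, did not share this pattern. It is an internal member with no copy on chromosome 4, its KO libraries held 0 to 1.46 RPM and the others 0 to 10.6 RPM with medians of 0 and 1.57 RPM, and its log2 fold change of -3.03 (SE 0.68, edgeR adjusted p = 0.034) became -2.70 without C5733, which held the 10.6 RPM, and no longer passed the threshold. The call was also lost under DESeq2, with wider joining of regions, without the mating term and in the later deposited libraries alone. Over all main libraries it held 45 reads in Chr4-cl KO libraries and 52 in the others. The last 3 of the 9 members in order of adjusted p were named after their values had been seen.

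Sex was compared over the 74 mice with strain background as a covariate. Of the 1285 members, 148 were called, 9 higher and 139 lower in males, beside 23.0% of all loci called, 11.8% higher and 11.3% lower in males. C5733, a female, carried much of this. Without it 36 members were higher and 68 lower, beside 544 higher and 403 lower of all 4372 loci tested. On the autosomes the counts of members went from 1 higher and 72 lower to 27 higher and 27 lower. DESeq2 called 7 higher and 57 lower, beside 43 and 206 of all 4471 loci tested. Of the 130 members on chromosome X, 67 were lower in males and 6 higher, with a median log2 fold change of -1.09 (-0.68 without C5733, with 41 lower and 7 higher). Of 144 chromosome X loci called in every B6 library, 137 were lower, with a median of -0.37.

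The 6 X-linked members higher in males were an exception to the direction of their chromosome. All 6 had neither match. None was called in a female, so they became members only through males and the ES lines, and the folds and p-values describe the values that made them members. At chrX:120324978-120325318, which overlaps an exon of Astx6, the 37 labelled males held 0 to 50.3 RPM with a median of 37.5 RPM, and the 37 females 0 to 3.84 RPM with a median of 0 (log2 fold change 5.95, SE 0.35, edgeR adjusted p = 4.73e-24). At chrX:120115921-120117435 the males held 0 to 31.9 RPM (median 19.5 RPM) and the females at most 1.46 RPM, with reads in 3 of them (edgeR adjusted p = 1.23e-25), a pooled ratio of 176 with a counting interval of 60.04 to 859. At chrX:120778279-120779345, which overlaps an exon of Gm14950, no female held a read and males held up to 12.2 RPM (median 6.02 RPM, at least 51.7-fold, edgeR adjusted p = 1.66e-14). At chrX:143692829-143692938 and chrX:51375820-51376407 the male medians were 6.89 and 5.598 RPM, with a read in 2 and 1 of the 37 females. The sixth, chrX:125352156-125352276, had no read in a female and a male median of 3.56 RPM. It was named after its values had been seen.

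The zeros among labelled males came largely from the same mice. At all 6 loci 4 mice labelled male (C6923, C6924, C6926 and H04408) were at 0, and at the first 2 loci they were the only males at 0. The other 33 males there held 30.0 to 50.3 RPM and 10.7 to 31.9 RPM, apart from all females. In these 4 mice chromosome Y took at most 0.00677% of reads, against at least 0.142% in the other males and at most 0.0257% in females. Without the 4, 10 members were higher and 122 lower. The labels were kept as given. In the reference 4 of the 6 loci had near-identical copies on unplaced contigs, 3 of them 261 to 289 copies and the fourth 1.

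Of the 3 members on chromosome Y, all LTR-end members, 2 were higher in males. Neither of these 2 was called in a female, so they became members only through males and the ES lines. Their folds and p-values describe the values that made them members. At chrY:1082920-1085630 males held 0 to 27.5 RPM (median 12.8 RPM) and females at most 2.42 RPM (log2 fold change 5.15, SE 0.34, edgeR adjusted p = 2.84e-21). At chrY:1038551-1038919 a read was seen in 15 of 37 males and 1 of 37 females (log2 fold change 3.25, SE 0.43, edgeR adjusted p = 3.54e-09). At chrY:228316-229112, with a probe identity of 92.0%, males held 0 to 12.2 RPM (median 4.59 RPM) and females 0 to 15.2 RPM (median 1.46 RPM), and the difference did not pass the threshold (edgeR adjusted p = 0.11). Its highest female value was that of T2379.

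**Figure D5:**
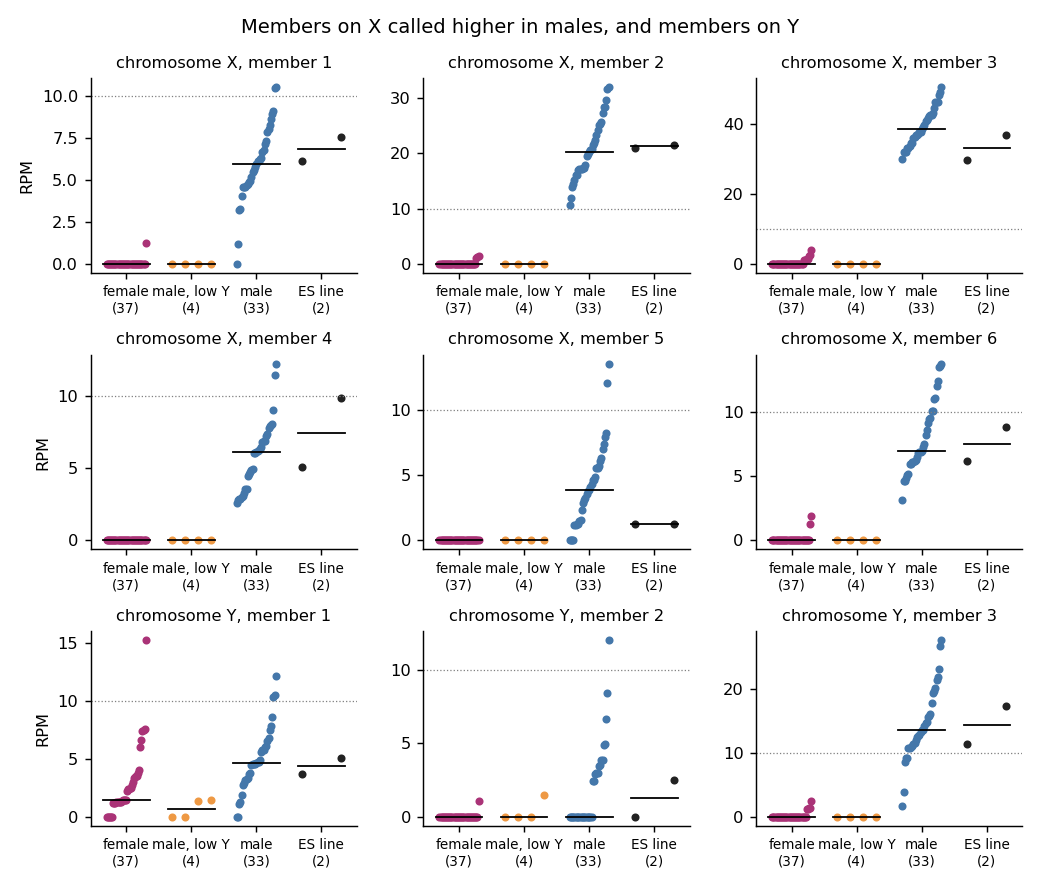
RPM (axes differ in scale) of the 6 X-linked members higher in males and the 3 members on chromosome Y, numbered by position, with 1 point per library for 37 females, the 4 labelled males with few chromosome Y reads, the other 33 males and the 2 ES lines, lines at the medians and a dotted line at 10 RPM. The 4 lie at 0 at every X-linked member shown.

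No difference between ear and tail DNA passed the test at a member. None of the 1285 members was called between ear and tail with strain as a covariate by edgeR, beside 0.0449% of all loci, and none by DESeq2, while 76 members had an unadjusted p under 0.05. A fit without the strain term called 54, beside 786 of all 4454 loci tested.

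Members lay mostly between genes. Of the 1285, 1073 (83.5%) were between genes, 181 (14.1%) in introns, 20 in exons outside coding sequence and 11 in coding exons, against 76.7%, 15.1%, 3.54% and 4.65% of loci called in every B6 library. Within 10 kb of such a B6 locus lay 111 members (8.64%). Coding-exon members called in the most libraries were those at Gm10800 (54 libraries), Slfn2 (44), Rrp9 (43), Skint2 (33), Vmn2r115 (10) and Sp140 (5). Slfn2 belongs to the Schlafen family of immune regulators, Skint2 to a family of thymic and skin immunoglobulin-like proteins, Vmn2r115 encodes a vomeronasal receptor, and Sp140 a chromatin reader of immune cells. The Slfn2 member (chr11:82883693-82884517, probe identity 91.7%) held a read in all 76 libraries at 2.34 to 37.8 RPM. The Gm10800 member (chr2:98506394-98507462, neither match) was highest in T2379 at 60.9 RPM and had no read in C5733. Gm10800 lies in repeated sequence, and reads there are uncertain in their placement.

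Some members held reads almost everywhere and still passed the threshold once. At chr15:14286682-14286750, a LTR-end member with a probe identity of 86.7%, every library held a read at 1.17 to 12.9 RPM with a mean of 5.46 RPM, and 1 library was above 10 RPM. At chr14:82812800-82812855, with neither match, 74 libraries held a read and the highest value was 10.001 RPM. Members at chr8:19221555-19221752 and chr12:68160369-68160621, the latter in an intron of Mdga2, which encodes a cell adhesion protein of neurons, held reads in 73 and 72 libraries with highest values of 12.5 and 12.05 RPM. At chr7:17981678-17981749 a stretch identical to its probe was found, 71 libraries held a read, and the 1 call was in T2379 at 15.2 RPM.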

How the data were processed

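ETn-captured genomic DNA libraries had been sequenced in read pairs. According to the study's methods and processing notes, the authors aligned each mate to mm9 with Bowtie, dropped duplicates with SAMtools, retained unique reads whose mate fell in an ETn repeat, and merged reads within 1000 bp with bedtools. Which versions they ran is not given in the sources used here. Deposited are raw read counts per region and library, unpooled. The unique mapping and duplicate removal limit the counts at repeated sequence.

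RPM is 1e6 times the count over the library total (525419 to 1046650 ETn-paired reads, median 736479 over 87 libraries). Regions at 10 RPM or more in any library were joined within 1000 bp into loci, and reads of each library were summed per locus. Main libraries are the first listed per mouse or ES line. Coordinates are mm9, which is NCBIM37, and 0 of 786023 regions ran past a chromosome end. Probe sequences (902 distinct of 1274 for ETn, 120 bases) came from the study's supplement and were searched with blastn 2.17.0 (word size 11, e-value 1e-05, at least 50 bases, within 1000 bp). Internal sequence came from 60 of 219 elements found between near-exact probe matches. This class was defined after seeing the data. Near-identical copies were searched at a word size of 48, at least 90% identity and 50% of the locus, unplaced contigs included. Promoters, proteins and RLTR4 captures were not analysed here.

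Counts were tested with edgeR 4.0.16 (glmQLFit and glmQLFTest, library totals as sizes, loci with at least 10 reads over the libraries compared, Benjamini-Hochberg over all loci tested, threshold 0.05), with DESeq2 1.42.0 as an alternative, in R 4.3.3. The SE is the log2 fold change divided by the square root of F. The procedure was tested on simulated data. The spread index is the squared difference of 2 libraries' counts over that expected from counting error. Shares have exact (Clopper-Pearson) 95% intervals, which treat the loci or calls as independent. With 1 library per mouse, p-values measure the spread between mice. Many of the mice are siblings or parents and offspring, and the fits treat them as independent. The strain fits also include the ES lines. All B6, F1 and Chr2-cl libraries were deposited earlier and most F2 libraries later. A difference between F2 and B6 therefore cannot be told apart from one between the rounds of deposit.

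The members, the lists and the tests were chosen with earlier results of these data known. Named loci are the 6 members called in the most libraries, the 6 called in exactly 1 with reads in the most, the 6 with the smallest adjusted p per test, up to 6 in exons of protein-coding genes, those on chromosome Y, and those nearest 100 RPM on either side. Loci named outside this rule are marked. Alternatives were thresholds of 5 and 20 RPM, other limits, joining distances and normalizations, and leaving out libraries. Labels gave no replicate numbers that pair mice.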

Additional observations from a re-analysis of the deposited data

Results flagged for a closer look

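Within the 4 tail libraries of mating 2 WT mice, C5733 lay far from the others, with 951 members called where the group's median was 169 and its lowest 150. It was the 1 group with such a library among 11 groups of 4 to 10 libraries. Since 551 of the 951 were called in C5733 alone, its excess is in part built into the list. It is therefore not set against chance. Of these 951 members, 495 were internal, 365 LTR-end and 91 neither, and no repeat library of this mouse was analysed here. The cause was not tested.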

How the results depend on the processing

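Of 110 alternative values of the results, 78 stayed close to the reported value. Close meant within 1.5 times for the number of members and for counts of test calls. It meant within 1 SD (24.5) for members called per library, and within the 95% interval for shares. Without C5733 the F2 count was among the 78, although its split turned from 251 higher and 158 lower to 180 and 231. Over all loci the split without C5733 was 1828 higher and 753 lower. No fitted change of a named locus turned in sign. The number of members (1285) was 2120 at 5 RPM, 791 at 20 RPM, 733 without C5733, and 534 without C5733, T2379 and C6734, a choice made after seeing the data. The median number called per library (151) was 259 at 5 RPM and 101.5 at 20 RPM, and 116 and 177 with upper limits of 50 and 200 RPM. The LTR-end share (40.3%) was 28.7% at 5 RPM, 48.5% at 20 RPM, 46.0% with reads in 12 libraries, 49.4% without C5733, 31.7% with the match inside the locus, 26.3% with at least 100 bases matched, and 50.4% without the 3 libraries. The internal share (40.8%) was 52.4% with a match to at least 1 element, 37.5% with at least 300 bases, 19.0% without C5733 and 12.7% without the 3 libraries, all chosen after seeing the data. The share of calls with a read in the repeat (99.6%) was 94.6% at 5 RPM, 100% at 20 RPM and 77.1% when a call was required.

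Under filterByExpr, which tested 142 to 197 members, 2 members were called for KO, 105 for F2, 70 for F1, 51 for the Chr2-cl mating and 22 for sex. Of all loci tested, the same fits called 8 of 2612, 1731 of 2716, 753 of 2716, 623 of 2716 and 263 of 2715. Mating 2 alone gave 2 KO calls and mating 3 alone 1, beside 5 of 3677 and 12 of 3032 loci. Tail libraries alone gave 237 for F2 (119 higher and 118 lower), DESeq2 64 for sex, and ear against tail without the strain term 54. Over all loci these were 1797 of 4417, 249 of 4471 and 786 of 4454. The causes were not tested, other than the fewer members and mice these fits used. Over named loci, 255 of 274 alternative values kept their call, and the 19 that lost it were all KO calls, 6 of them in mating 2 alone and 7 in mating 3 alone. No paired analysis was possible because the labels give no replicate numbers shared between groups.

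Depth limits the calls, since 10 RPM is 5.25 to 10.5 reads and a member near the threshold passes it by a few reads.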
